A study of Homo sapiens with 2 samples.

Results

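UBE2J1 and DIS3L are 2 genes, chosen as ZFX targets, whose starts were examined for binding of ZFX in the human medulloblastoma cell line DAOY. The choice was made with earlier results of these data known, so a peak at each start is not independent support for binding. A peak counted for a gene when it overlapped the 5 kb on either side of the start, with the starts taken at position 90062600 of chromosome 6 (minus strand) for UBE2J1 and at 66585600 of chromosome 15 (plus strand) for DIS3L on the build hg19. Both starts are given in steps of 100 bp. The rule found 2 peaks of 14471 in the list, 1 at each gene. The study held 2 samples of DAOY chromatin with 1 library each, one precipitated with a rabbit polyclonal antibody against ZFX and one of sheared chromatin without precipitation, the input. Both came from cells with no stated treatment or genetic change. Peaks of the ZFX library were analysed here, and the input was not. A single library allows neither a replicate check nor a test, the number of reads behind a peak is unknown, and values below describe this library.

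ZFX is a transcription factor of the zinc finger class whose gene lies on the X chromosome. It binds DNA mostly near the starts of genes, and it is known for its part in the self-renewal of stem cells and the growth of several tumours. UBE2J1 encodes a ubiquitin-conjugating enzyme anchored in the membrane of the endoplasmic reticulum, where it takes part in marking misfolded proteins for degradation by the proteasome (ER-associated degradation, ERAD). DIS3L encodes the ribonuclease of the cytoplasmic RNA exosome, the complex that degrades RNA from its 3′ end. In chromatin immunoprecipitation and sequencing (ChIP-seq), a peak is a stretch where DNA fragments from the precipitate pile up, and a peak at the start of a gene is read as the factor, or a complex that holds it, lying there.

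The sequence around both starts is shown because both peaks cover the start itself. RefSeq windows, which run from 250 bases before a start to 50 bases after it on the build GRCh38.p14, were matched by gene symbol for 2 of 2 genes. UBE2J1 had 1 window, on the minus strand of chr6:89352673-89352972. DIS3L had 2, on the plus strand of chr15:66293318-66293617 and of chr15:66293565-66293864. The 2 DIS3L starts lie 247 bp apart and their windows share 53 bases. Positions were not compared between hg19 and GRCh38.p14, so which of these bases lie inside the peaks, and which DIS3L start is nearer to the position used for the peaks, was not determined. Capitals mark the 5 bases AGGCC read on either strand (GGCCT in the printed strand), which begin the ZFX motif described below.
UBE2J1: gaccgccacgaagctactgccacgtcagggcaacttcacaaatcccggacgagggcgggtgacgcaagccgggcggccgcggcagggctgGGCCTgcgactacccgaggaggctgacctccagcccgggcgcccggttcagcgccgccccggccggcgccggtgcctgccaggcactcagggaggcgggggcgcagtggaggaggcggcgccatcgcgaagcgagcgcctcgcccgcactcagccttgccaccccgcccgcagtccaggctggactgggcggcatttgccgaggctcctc
DIS3L, first start: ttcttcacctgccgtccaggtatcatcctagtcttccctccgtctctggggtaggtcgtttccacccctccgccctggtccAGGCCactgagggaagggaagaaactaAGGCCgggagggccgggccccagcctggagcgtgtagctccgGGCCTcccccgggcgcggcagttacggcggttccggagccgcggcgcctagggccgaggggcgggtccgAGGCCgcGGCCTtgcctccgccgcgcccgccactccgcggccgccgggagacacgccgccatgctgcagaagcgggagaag
DIS3L, second start: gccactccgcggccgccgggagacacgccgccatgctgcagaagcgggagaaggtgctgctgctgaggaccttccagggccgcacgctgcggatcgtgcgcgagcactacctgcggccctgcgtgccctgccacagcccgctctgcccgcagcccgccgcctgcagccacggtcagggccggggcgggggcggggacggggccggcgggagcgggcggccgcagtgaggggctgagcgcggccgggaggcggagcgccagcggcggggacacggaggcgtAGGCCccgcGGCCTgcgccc
The capitals fall once in the UBE2J1 window, at position -160 from the start, 5 times in the first DIS3L window, all before the start, and 2 times in the second DIS3L window, both after the start.

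Both promoters carried a ZFX peak that covered the start, and the UBE2J1 peak was among the strongest of the list while the DIS3L peak was well above the median. The score, the authors' own value for each peak with no stated unit, was 1772 for UBE2J1 and 336 for DIS3L, against a median of 109 over all 14471 peaks. By score the UBE2J1 peak ranked 104 from the top and the DIS3L peak 2215. In other words, 99.3% of the other peaks scored lower than the UBE2J1 peak and 84.7% scored lower than the DIS3L peak. The 90th, 95th and 99th percentiles of all scores were 444, 652 and 1416, so the UBE2J1 peak lay above all of these and the DIS3L peak below each of them. The difference between the 2 peaks was 1436 score units, and 2110 peaks (14.6% of the list) scored between them. This difference could not be tested, since each gene has 1 value from the same library.

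The UBE2J1 peak lay at chr6:90061743-90062950 on hg19 and was 1208 bp wide. Relative to the direction of transcription, it began 350 bp before the start and ended 857 bp after it, with its midpoint 253.5 bp after the start. The DIS3L peak lay at chr15:66585536-66586507 and was 972 bp wide. It began 64 bp before the start and ended 907 bp after it, with its midpoint 421.5 bp after the start. The part of the peak after the start made up 70.9% of its width at UBE2J1 and 93.3% at DIS3L. With the starts as used here, both peaks thus lay mostly on the transcribed side of the 2 genes. This split depends on the start used, which is given in steps of 100 bp and may lie further than that from a RefSeq start. A start 500 bp further in the direction of transcription would have put both midpoints before it. DIS3L has 2 RefSeq starts 247 bp apart, and distances to the midpoints were not recomputed for these. No hg19 gene annotation was used, so exons and introns under the peaks are not given.

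**Figure D1:**
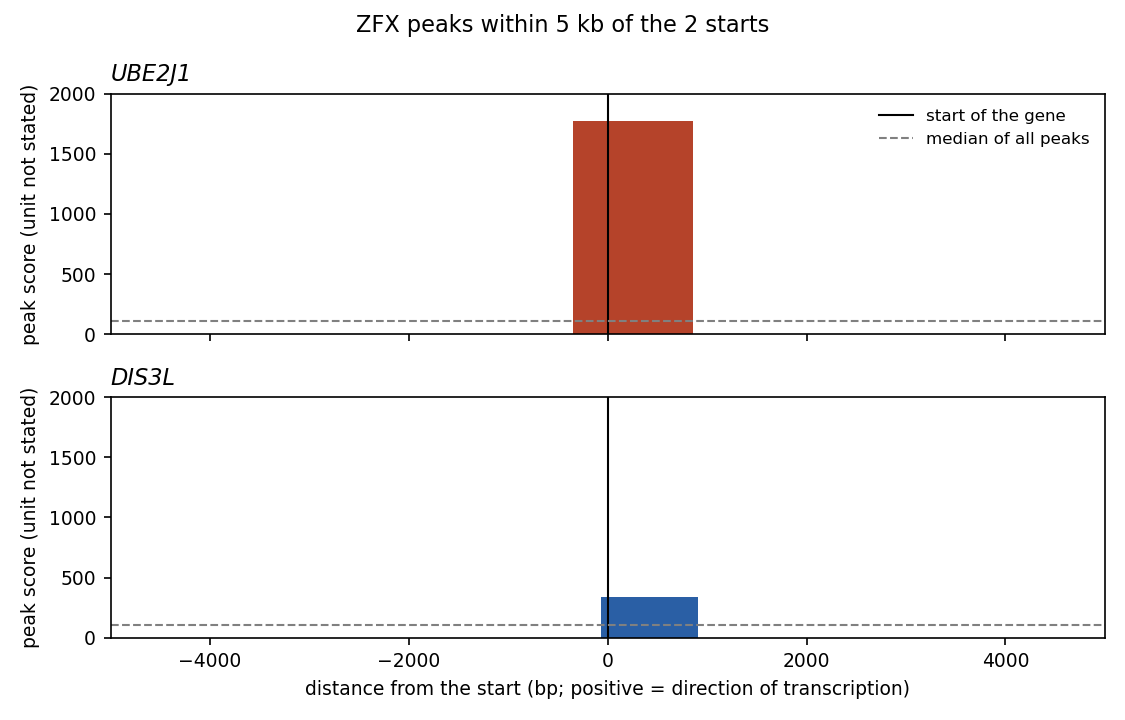
Peaks within 5 kb of the UBE2J1 (top) and DIS3L (bottom) starts, with distance from the start in bp on the x axis, positive in the direction of transcription, and the authors' score on the y axis; each bar is 1 peak drawn at its width. Each window holds 1 peak that covers the start, with a score of 1772 at UBE2J1 and 336 at DIS3L, and the dashed line is the median of all peaks, 109.

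Within the window of 5 kb on either side no second peak was found at UBE2J1 or at DIS3L, and the 1 peak covered 12.1% of the window at UBE2J1 and 9.72% at DIS3L. Being alone was the more common state in the list. Of all 14471 peaks, 8766 (60.6%) had no other peak overlapping the 5 kb on either side of their midpoint. The window drawn around the start could be narrowed to 1 kb or widened to 50 kb with the same count of 1 at both genes. No other count was possible, since the nearest other peak lay 58.5 kb from the edge of the UBE2J1 peak and 93.1 kb from that of DIS3L.

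Width separated the 2 peaks less than score did, with 799 peaks between them in width, against 2110 in score. Of the other peaks, 95.4% were narrower than the UBE2J1 peak and 89.9% were narrower than the DIS3L peak, against a median width of 481 bp over the list. Wider peaks score higher in this list, so each peak was also set beside peaks whose width lay within 20% of its own. Among 1204 peaks of like width to UBE2J1, the median score was 429 and the middle 50% lay between 302 and 650. Only 39 of these scored higher than UBE2J1, which stood 1343 score units above their median. Among 2026 peaks of like width to DIS3L, the median score was 334, the middle 50% lay between 221 and 496, and 1005 scored higher than DIS3L. The DIS3L peak stood 2 score units above that median, so its score was that of a typical peak of its width, whereas the UBE2J1 score was in the upper 3.24% of peaks of its width. The score neighbours in the list show the spread of widths at 1 score. The peak next above UBE2J1 scored 1775 over 5347 bp on chromosome 19, and the peak next below scored 1770 over 1336 bp on chromosome 5. For DIS3L these were peaks of 666 bp on chromosome 6 and 766 bp on chromosome 14, with scores of 336.2 and 336.1. Among 70 peaks with a score within 20% of that of UBE2J1, 51.4% were narrower than it. Among 1197 peaks with a score within 20% of that of DIS3L, 73.5% were narrower than it.

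**Figure D2:**
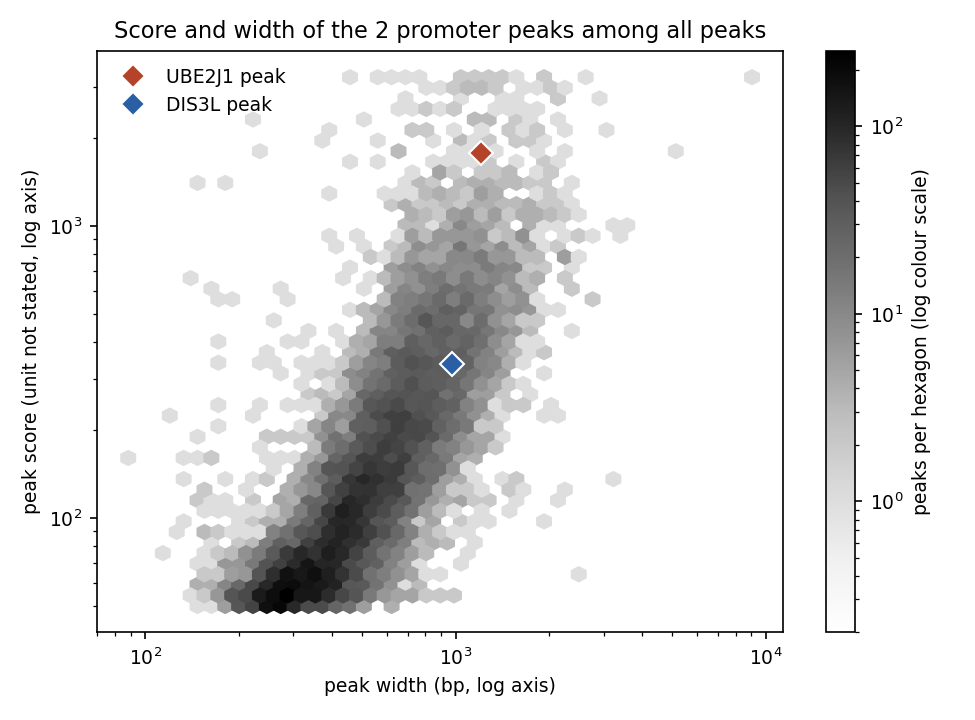
Score against width for all 14471 peaks, both on log axes, with the number of peaks per hexagon as grey level on a log scale and the UBE2J1 and DIS3L peaks as coloured diamonds. The UBE2J1 peak lies above most peaks of its width, and the DIS3L peak lies in the middle of those of its width, where the median score was 334.

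On its own chromosome the UBE2J1 peak ranked 6 of 834 peaks, with the strongest peak of chromosome 6 at a score of 3047 and a median of 103. The DIS3L peak ranked 61 of 465 on chromosome 15, where the strongest peak scored 3100 and the median was 106. Several peaks of the list share the score of exactly 3100. The nearest peak with a score at least as high lay 13750 kb from the UBE2J1 peak and 683 kb from the DIS3L peak. A peak of high rank has few such peaks on its chromosome, and no value of this distance over the list is given here.

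Neither start had another peak with its midpoint within 50 kb, and 29.1% of all peaks likewise had no other that near. The nearest other peak to UBE2J1 lay upstream at chr6:90121446-90121720, 58.5 kb from the edge of its peak, and scored 64.5 over 275 bp. On the downstream side the next peak was at chr6:89856270-89856556, 205 kb away, with a score of 70.6 over 287 bp. For DIS3L the nearest was downstream at chr15:66679600-66679916, 93.1 kb from the edge, with a score of 69.1 over 317 bp. The next upstream peak of DIS3L lay 387 kb away at chr15:66198516-66198787 and scored 57.0 over 272 bp. These 4 flanking peaks, as listed, all scored between the lowest score of the list, 50, and its median. The gaps that they bound thus depend on which weak peaks were listed. The downstream one of UBE2J1 directly adjoined a further peak of 662 bp with a score of 184, above that median, and the pair became 1 region when close peaks were joined. They left a stretch of 265 kb around UBE2J1 and of 481 kb around DIS3L in which the peak at the start was the only one. The median gap from a peak to its nearest neighbour was 14.4 kb over the list, and 73.9% of peaks had a smaller gap than UBE2J1 and 82.1% had a smaller gap than DIS3L.

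Within 500 kb on either side of the start, UBE2J1 had 8 other peaks with scores of 52.2 to 331 and a median of 73.1. DIS3L had 7 others with scores of 51.3 to 155 and a median of 69.1. A peak of the list had a median of 10 others within that distance. As few others as UBE2J1, or fewer, were found for 42.6% of all peaks, and as few as DIS3L for 37.9%. In both regions the peak at the start had the highest score. The share of all peaks that are the highest within that distance was not computed. Downstream of UBE2J1 the strongest of the others, with a score of 331 over 1118 bp, lay 271 kb from the start. At 1000 kb the 2 regions parted. UBE2J1 had 9 others and remained the highest, while DIS3L had 38 others, of which 4 scored higher and the strongest reached 661, against a median of 19 others over all peaks. In the RefSeq gene order on GRCh38.p14 the protein-coding neighbours of UBE2J1 are GABRR2, which encodes a subunit of a GABA receptor, and RRAGD, which encodes a Rag GTPase of nutrient signalling. Those of DIS3L are MEGF11 and TIPIN, the last of which encodes a protein of the replication fork. Peaks were not assigned to these genes, whose hg19 positions were not used here.

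**Figure D3:**
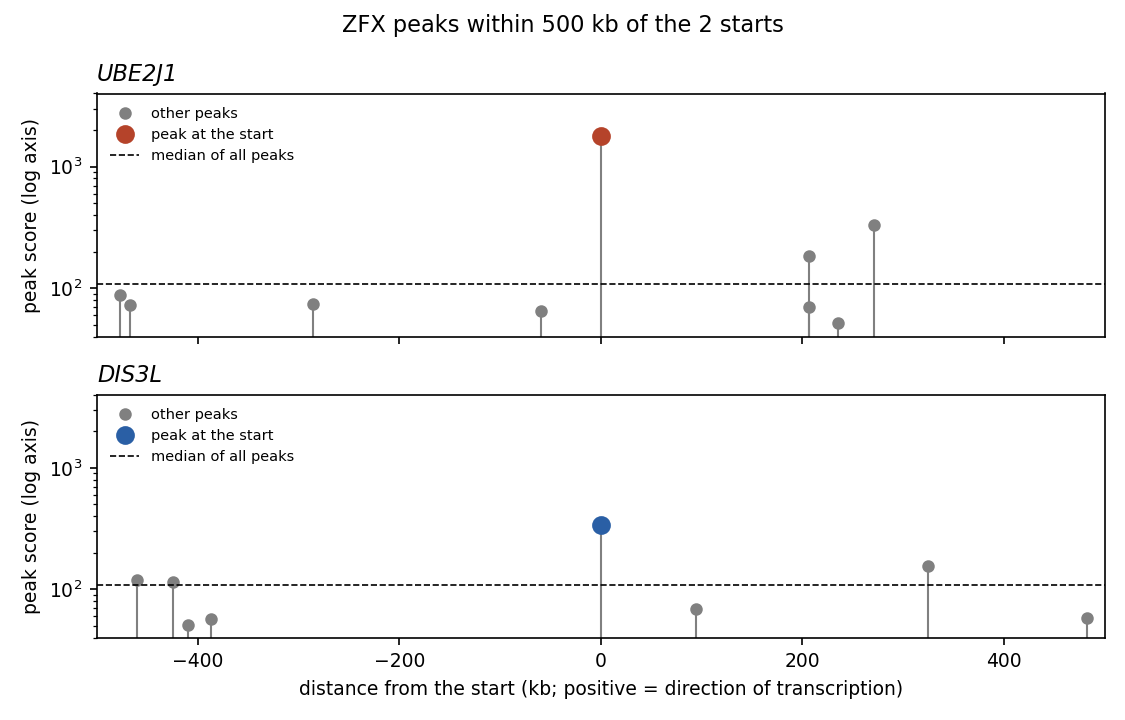
Peaks with their midpoint within 500 kb of the UBE2J1 (top) and DIS3L (bottom) starts, with distance from the start in kb on the x axis, positive in the direction of transcription, and the authors' score on a log y axis. The coloured point is the peak at the start, the highest in each panel, with 8 other peaks around UBE2J1 and 7 around DIS3L; the dashed line is the median of all peaks, 109.

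A further gene starts beside DIS3L. DIS3L-AS1, a long noncoding RNA gene on the opposite strand, has a RefSeq start 69 bp from the first DIS3L start and 316 bp from the second, and its window shares 168 bases with the first DIS3L window and 185 with the second. All these distances are shorter than the DIS3L peak, which is 972 bp wide, so the peak cannot be assigned to DIS3L apart from DIS3L-AS1. DIS3L-AS1 runs the other way, so the transcribed side of DIS3L is the upstream side of DIS3L-AS1. The entries next to UBE2J1 in the gene order are the pseudogene TUBB3P1 and RRAGD.

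All 3 promoter windows were rich in G and C and in CpG dinucleotides. The share of G and C was 74.7% in the UBE2J1 window, 72.0% in the first and 79.3% in the second DIS3L window, against a median of 58.7% over 35114 RefSeq windows of the same length. That put them above 90.0%, 84.6% and 96.9% of the other windows. The ratio of observed to expected CpG was 0.861 for UBE2J1, 0.849 for the first and 0.875 for the second DIS3L start, against a median of 0.579. By this ratio they lay above 75.7%, 74.1% and 77.3% of the other windows. CpG dinucleotides numbered 36 in the UBE2J1 window, 33 in the first and 41 in the second DIS3L window, against a median of 14. Among protein-coding genes alone (22196 windows) the medians were nearer to these values, at 62.3% for G and C, 0.737 for the CpG ratio and 21 for the CpG count.

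**Figure D4:**
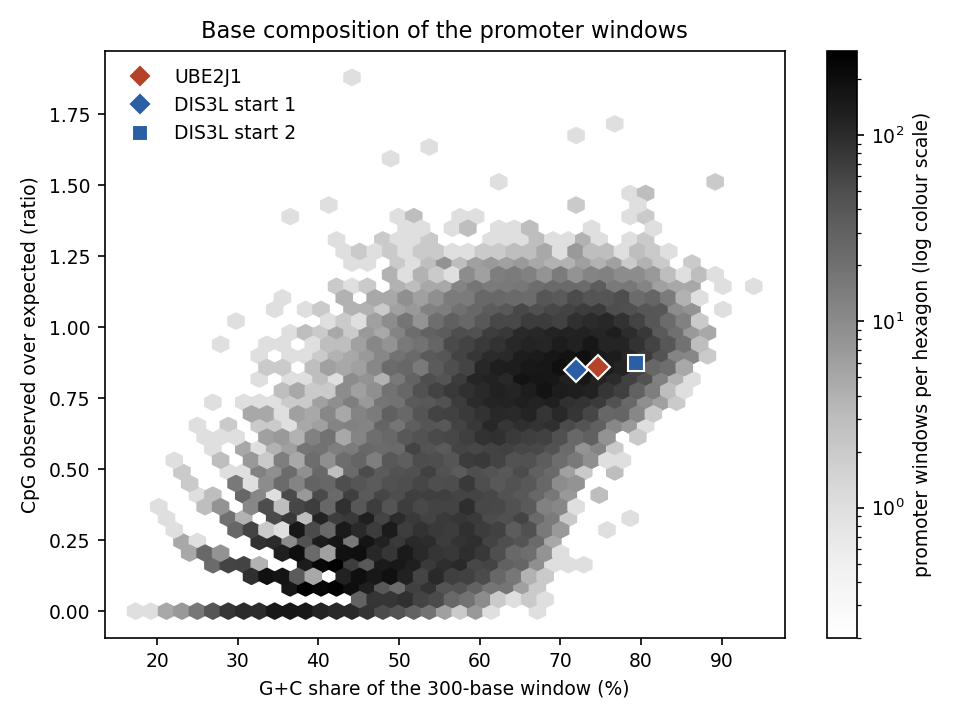
Share of G and C in percent against the ratio of observed to expected CpG for 35114 RefSeq promoter windows, with the number of windows per hexagon as grey level on a log scale. UBE2J1 (red diamond), the first DIS3L start (blue diamond) and the second (blue square) lie together in the dense upper group, at 74.7%, 72.0% and 79.3% G and C.

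The motif described for ZFX, AGGCCT and its longer form AGGCCTNG, was searched on both strands and was not found in any of the 3 windows. AGGCCT reads the same on both strands and lies inside every match of AGGCCTNG. AGGCCT occurred in 10.9% of all windows and AGGCCTNG in 6.14%, so most promoters lack it in 300 bases, and its absence from these letters says nothing of the wider peaks. The shorter AGGCC, added after the sequences had been seen, had 1 match in the UBE2J1 window, 5 in the first DIS3L window and 2 in the second. At least 1 match was present in 56.2% of all windows and at least 2 in 29.4%, while 5 or more were present in 2.18%. G-and-C-rich windows hold it more often. Among 4523 windows in the G and C range of the 3 shown here, 73.0% had a match. The share with 5 or more was not computed in that range.

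Of the general promoter motifs, GGGCGG, which is bound by SP1 and related factors, was present in all 3 windows on either strand. It had 5 matches at UBE2J1, 2 at the first and 3 at the second DIS3L start, and 44.95% of all windows and 93.4% of windows in the same G and C range had at least 1. Windows with 5 or more made up 5.14% of all, and that share was not computed for windows in the same G and C range. TGACGT, part of the cyclic AMP response element, had 1 match at UBE2J1, at position -229 from the start, and none at DIS3L, and it was present in 7.98% of all windows and 8.67% of those in the same G and C range. No match was found in the 3 windows for CCAAT, which 34.6% of all windows and 22.6% of those in the same G and C range held. Nor was any found for TATAAA, the TBP motif, which 11.5% of all windows held but only 1.81% of those in that range. The same was true of CCGGAAG, a motif of the ETS family present in 10.3% of all windows and 13.7% of those in that range, and of the palindromic NRF1 motif, present in 1.24% and 1.59%. These matches describe the letters only.

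The relatives of the 2 genes were compared by sequence alone, since their hg19 positions were not used. UBE2J2, the second enzyme of the UBE2J family, had 77.3% G and C in its window, 7 matches of GGGCGG and none of AGGCC. DIS3L2, a cytoplasmic ribonuclease that acts without the exosome, had 72.0% G and C, 1 match of GGGCGG and 5 of AGGCC, the same number as the first DIS3L window. DIS3, the nuclear ribonuclease of the exosome, had 58.7% G and C, 2 matches of GGGCGG and 1 of AGGCC. None of these 3 windows held AGGCCT. Of 16 genes for ERAD, not all of them for ubiquitination, 11 had a window. AGGCCT was found in 1 of 11 windows (9.09%) and GGGCGG in 8 of 11 (72.7%). Of 17 genes for the RNA exosome and its cofactors, with DIS3L2 counted among them, 15 had 17 windows. AGGCCT was found in 2 of 17 (11.8%) and GGGCGG in 14 of 17 (82.4%). The shares for AGGCCT stand beside 10.9% of all and 10.8% of protein-coding windows, and those for GGGCGG beside 44.95% and 56.3%. The median share of G and C was 69.7% in the ERAD windows and 62.3% in the exosome windows, against 62.3% in protein-coding windows. The median CpG ratio was 0.929 in the ERAD and 0.980 in the exosome windows, above the ratios of the UBE2J1 window and both DIS3L windows. GGGCGG is more common in windows rich in G and C, and the lists were not matched for this. UBE2J1 and DIS3L are members of these lists, and no test was made on them.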

How the data were processed

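ZFX ChIP-seq of DAOY cells was represented by 1 peak list, and the antibody in the labels told the ZFX sample from the input. Bowtie2 2.0.0 and hg19 are listed, with no role, in the submitters' processing notes, and hg19 was taken as the build of the positions. Peak names contain MACS, per the file contents, while its version, its threshold and any control sample are not given in the sources. The authors deposited a score per peak without a stated unit, and it was used only to rank and describe peaks within the list. Starts and ends were deposited by the authors in bp, and starts were taken as counted from 0 and are printed counted from 1. The start positions of the genes came with the choice of the 2 genes, were not read from an annotation, and are given in steps of 100 bp. Depth is unknown, so no counting error can be given.

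The genes, lists and settings were chosen with earlier results of these data known. By the rule for named genes, the 2 genes, their direct neighbours in the gene order and their paralogs were named, with the peaks at the starts, the nearest on either side and the next in score. A percentile is the share of the other peaks with a lower score, ties counted at their mean rank. Peak counting was tested on simulated lists with planted peaks. Promoter windows are from RefSeq. Alternatives changed windows, overlap, ranking and start positions. Values were computed in Python 3.11.15 with pandas 2.3.3, numpy 2.4.6 and, for intervals, scipy 1.17.1, and plotted with matplotlib 3.10.9.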

Additional observations from a re-analysis of the deposited data

How the results depend on the processing

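Of 43 alternatives for 11 values, 29 kept the value within 1.5 times the count, within its exact 95% interval over peaks, which treats peaks as independent, or, for a midpoint, within 1 bp. The count of 1 peak at each start was the same in all 9 alternatives per gene, which cover windows of 1, 2, 10 and 50 kb, the midpoint rule, the peaks above the median score, joined peaks and starts moved by 500 bp. With 1 peak over each start and no other within 50 kb, these could not give another count. Nor could the tie rule move an untied score, or counting starts from 1 move a midpoint by 1 bp. All of these are among the 29, so that number measures stability poorly. The share of peaks with a lower score moved to 96.8% for UBE2J1 and 50.4% for DIS3L among peaks of like width, and to 99.04% for UBE2J1 and 75.8% for DIS3L when ranked by score divided by width. For DIS3L it also moved to 87.1% on its own chromosome and 81.9% among joined regions. These shifts follow from the set of peaks or the quantity ranked. Measured from the nearest edge of the peak in place of the midpoint, the signed distance was -350 bp for UBE2J1 and -64 bp for DIS3L, negative because the edge before the start is nearer. Peaks around the start, that at the start included, numbered 9 for UBE2J1 and 8 for DIS3L at 500 kb, 2 for each at 100 kb, and 39 for DIS3L at 1000 kb. The motif AGGCCT had 0 matches in each promoter window, and the shorter AGGCC, chosen after the sequences had been seen, had 1 for UBE2J1 and 5 and 2 for the first and second DIS3L starts. No paired analysis was possible because there is 1 library with peaks, and no replicate could be left out. Depth is unknown, so weak peaks that were missed near either gene cannot be counted.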
